A study of Mus musculus with 9 samples.

Results

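Muscle of 18-month-old mice was compared with muscle of 2-month-old mice, all of which had received vehicle. The comparison used 6 of the 9 RNA sequencing libraries of the study, chosen by their labels: 3 libraries of vehicle-treated ICR mice at 2 months (numbered 2, 3 and 4) and 3 of vehicle-treated ICR mice at 18 months (numbered 1, 3 and 4). All were male, as the design text of the series states. The remaining 3 libraries came from 18-month mice given GW8510, a benzenesulfonamide, at 2 mg/kg intraperitoneally once daily for 14 days, dissolved in Sodium Carboxymethylcellulose, the solvent taken to be the vehicle; they lent their spread to the statistical fit but entered no contrast. ICR is an outbred stock, so the mice were not genetically identical. The labels name neither the muscle nor the hour of collection, and they do not say that each library came from a separate animal, so p-values measure the spread between these samples. Differences in litter, supplier or collection between the age groups cannot be told apart from age, and in whole muscle fewer cells of a type cannot be told apart from less RNA per cell.

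Adult skeletal muscle consists mostly of long multinucleated fibres, with capillary endothelium, fibroblasts, tendon ends, nerve and immune cells between them. Several of its transcripts follow the circadian clock, in which BMAL1 with CLOCK or NPAS2 drives transcription of the period and cryptochrome repressors and of output factors such as DBP. Others, the immediate-early genes, are switched on briefly by contraction, stretch, stress or handling of the tissue. In the months after weaning muscle also passes from growth, with active matrix synthesis, to maintenance.

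The libraries held 21718965 to 27437970 counts, and 3 counts, the floor used below for detection, corresponded to 0.103 to 0.13 CPM (counts scaled to TMM-adjusted library size, the unit of all levels below unless TPM is named). All 12 skeletal muscle identity genes were detected in the 6 libraries. On the TPM scale deposited by the authors, which accounts for transcript length, the skeletal muscle actin gene Acta1 stood at 21563 to 40159. Of the genes specific to other organs only Myh6, a cardiac myosin that muscle fibres also use, was abundant enough to be tested. Transcripts of Y-linked genes were present in all 6 libraries, and Xist did not exceed 0.0684 CPM, as male tissue requires. Aged library 4 stood apart: it lay farthest from the other libraries of its group in 53% of genes. In 553 genes it differed over 4-fold from the mean log2 CPM of the other libraries of its group. The same count was 191 and 219 for aged libraries 1 and 3 and 130 to 136 for the young libraries. The median SD of log2 CPM was 0.225 in the young and 0.315 in the aged group. The effect of aged library 4 is given beside the values of many, but not all, of the gene lists and genes below.

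At 18 months 75 of 14384 tested genes were higher and 100 were lower at an adjusted p under 0.05 (quasi-likelihood F test of edgeR), that is 0.521% and 0.695% of all genes tested, or 1.22% in either direction. The median absolute log2 fold change of the called genes was 1.9, and 79 of the 175 differed at least 4-fold. All 175 had non-overlapping groups of libraries, as did 26.2% of all genes tested. The count rested on few libraries: 48 genes passed without young library 2, 19 without young library 3, 48 without young library 4, 40 without aged library 1, 35 without GW8510 library 3, and 50 when only the 6 vehicle libraries were fitted. Without aged library 4, 143 genes passed, of which 99 were among the 175. Genes described below that missed the threshold in that fit were Adamts2, Adamts10, Apold1, Atf3, Bcl6b, Car3, Cd34, Cipc, Col4a1, Col14a1, Dusp13, Edn1, Egr3, Gem, Hspa1a, Hspa1b, Hspb6, Hspg2, Irs2, Jund, Kl, Lox, Miga1, Npas2, Prnd, Rhob, Rpsa, Rrad, Slc38a4, Spry4, Thbs1, Trib3, Gm6710, Gm15675, A530016L24Rik and A530058N18Rik; all kept their direction. The 143 and 50 calls are 0.963% of the genes tested without aged library 4 (0.458% higher, 0.505% lower) and 0.354% of those tested in the 6 vehicle libraries (0.0779% higher, 0.276% lower). The same contrast called 5.72% of genes with DESeq2 (2.33% higher, 3.4% lower) and 1.08% with limma-voom (0.368% higher, 0.716% lower). Whichever single library was left out (9 fits), and also with the 6 vehicle libraries alone, 17 genes stayed past the threshold. The 7 that were higher were Tmem232, Per2, Per3, Gm10320, the antisense transcript AC165951.1 and the processed pseudogenes Rpl30-ps9 and Gm12191. The 10 that were lower were Dnajb1, Nt5dc3, Irf2bp2, the zinc finger genes Zfp968 and Zfp973, the noncoding transcript B230312C02Rik and the pseudogenes Gm4366, Rpsa-ps10, Gm2539 and Rps24-ps3.

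**Figure D1:**
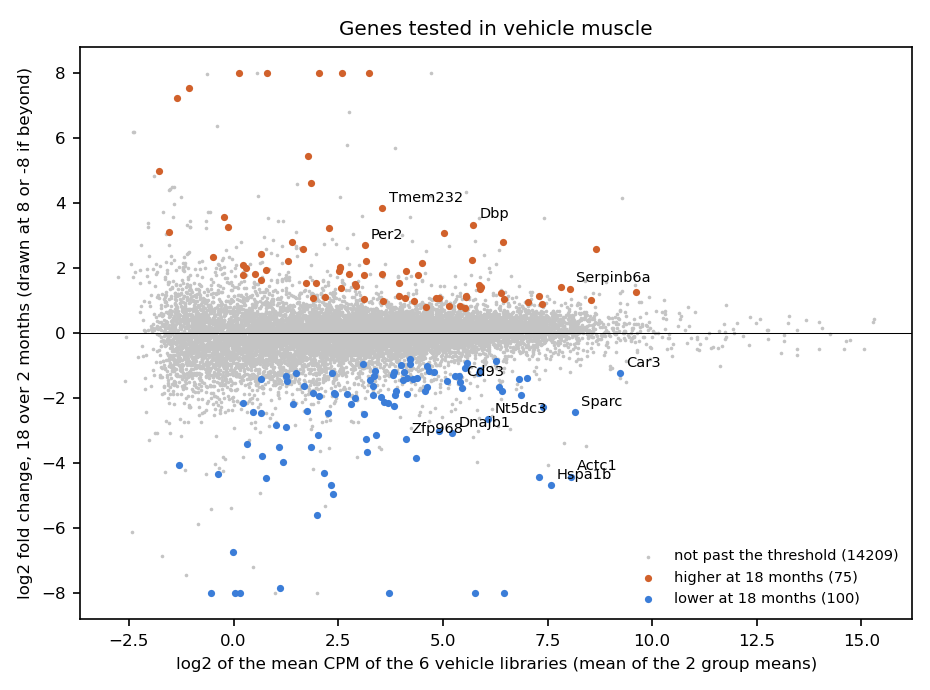
Each point is 1 of the 14384 tested genes, with the log2 of its mean CPM in the vehicle libraries on the horizontal axis and its log2 fold change, 18 over 2 months, on the vertical axis, drawn at 8 or -8 where it lay beyond. Orange points are the 75 genes higher and blue points the 100 genes lower at 18 months; grey points did not pass.

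Among protein-coding genes the most significant rise was that of Tmem232, which encodes a transmembrane protein. It stood at 1.13, 1.44 and 2.03 CPM at 2 months and 27.7, 19.1 and 19 CPM at 18 months (log2 fold change 3.84, standard error 0.35, edgeR adjusted p = 0.00234). The lowest aged library was far above the highest young one. Amy1, the salivary-type amylase, measured 24.2, 13.7 and 16.1 CPM at 2 months and 78.3, 51 and 127 CPM at 18 months and rose 4.74-fold. Its annotated transcripts share 31.8% of their 50-base words with Rnpc3, so reads of these genes may have been divided between them. Cpne2, a calcium-dependent phospholipid-binding copine, measured 8.41, 7.95 and 8.23 CPM at 2 months and 28, 27.3 and 55.3 CPM at 18 months (log2 fold change 2.17, edgeR adjusted p = 0.0288). The young libraries were nearly equal, and aged library 4 was the highest of the aged. Without that library the log2 fold change of Cpne2 was 1.75. Smaller rises were found for Pik3ip1, an inhibitor of PI3-kinase (64.1 ± 13.9 against 29 ± 1.89 CPM, SD, n = 3 each), and for Ccndbp1, a cyclin D binding protein (85.3 ± 25.8 against 33.2 ± 2.52 CPM). Serpinb6a, an intracellular serine protease inhibitor, measured 128, 148 and 165 CPM at 2 months and 293, 354 and 491 CPM at 18 months. Gpx3, the secreted glutathione peroxidase, measured 132, 129 and 109 CPM at 2 months and 313, 251 and 427 CPM at 18 months (log2 fold change 1.42, edgeR adjusted p = 0.0306). It was the single riser among 37 tested antioxidant and glutathione genes (against 0.521% of all genes), none of which fell.

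Several further rises concerned genes that muscle transcribes at modest levels. Tdrkh, which carries tudor and KH domains and acts in the piRNA pathway of germ cells, measured 2.67, 1.4 and 2.77 CPM at 2 months and 11.5, 6.38 and 10.4 CPM at 18 months. Nxpe3 measured 0.855, 0.338 and 0.741 CPM at 2 months and 3.64, 2.9 and 7.28 CPM at 18 months, and Katnal2, of the katanin family of microtubule-cutting enzymes, 0.889, 0.888 and 1.01 CPM at 2 months and 15.5, 6.99 and 3.55 CPM at 18 months. The aged libraries of Katnal2 were widely spread, all above the young, and its log2 fold change ran from 2.50 to 3.60 over the fits without 1 library, lowest without aged library 1. Trp63, the p53 family member p63, rose 2.18-fold (8.86, 9.22 and 11.1 CPM at 2 months and 19.1, 17.9 and 26.7 CPM at 18 months). With Eda2r, the ectodysplasin receptor, it made up the 2 risers among 32 tested p53 targets and senescence genes (against 0.521% of all genes), none of which fell. The list median was -0.04, with 15 members above 0 and 17 below. With the 6 vehicle libraries no member passed, and without aged library 4, 2 rose and 1 fell. Eda2r measured 8.41, 4.91 and 7.37 CPM at 2 months and 34.8, 22.2 and 118 CPM at 18 months, and the log2 fold change, 3.08 in the fit of all libraries, was 2.05 without aged library 4 and still passed. It passed in only 2 of the 9 fits without 1 library, and not with the 6 vehicle libraries (edgeR adjusted p = 0.0775). Among genes picked with their values known, Art5, an ADP-ribosyltransferase of muscle, measured 12, 8.63 and 7.96 CPM at 2 months and 31.5, 21.1 and 46.6 CPM at 18 months, Rasd2, a small GTPase, 27.3, 18.3 and 20.1 CPM at 2 months and 233, 102 and 121 CPM at 18 months, and Rrad, a GTPase that restrains calcium channels, 3.73, 2.28 and 3.36 CPM at 2 months and 7.57, 22.9 and 13.6 CPM at 18 months. Dusp13, a phosphatase gene with muscle-specific products, measured 84.6, 118 and 94.9 CPM at 2 months and 194, 176 and 279 CPM at 18 months. All 4 rose, and none of their aged libraries overlapped the young range.

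**Figure D2:**
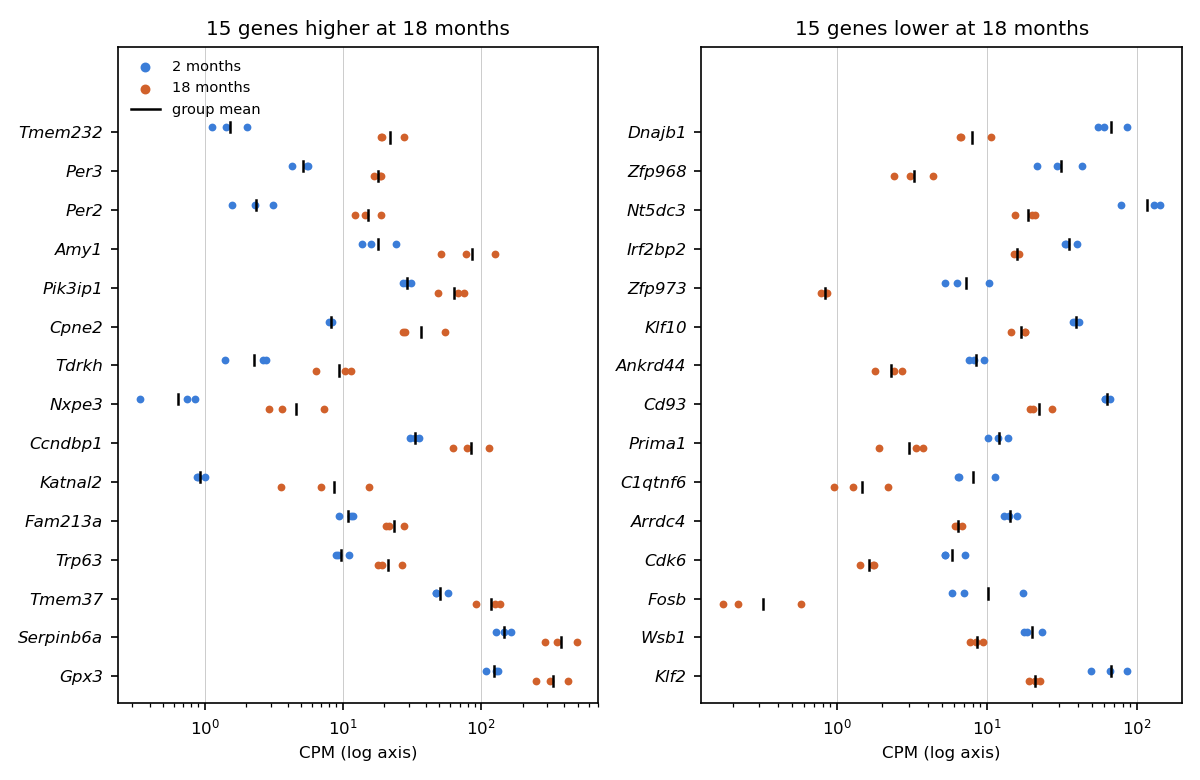
CPM (log axis) of the 15 higher and 15 lower genes with the smallest p, pseudogenes and clone-named genes (such as Gm10320) left out, 1 point for each library, blue for 2 months and orange for 18 months, with black bars at the group means of 3 libraries. In no gene shown do the 2 groups overlap, which the choice of genes required.

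Among protein-coding genes the most significant fall was that of Dnajb1, the co-chaperone of HSP70 that heat and protein stress induce, at 84.8, 54.6 and 60.5 CPM at 2 months and 10.5, 6.71 and 6.54 CPM at 18 months (log2 fold change -3.07, standard error 0.26, edgeR adjusted p = 0.00178). Nt5dc3, a gene with a nucleotidase domain, measured 129, 78 and 142 CPM at 2 months and 20.7, 19.9 and 15.3 CPM at 18 months and fell 6.24-fold. Irf2bp2, a transcriptional corepressor, measured 39.4, 32.9 and 33.6 CPM at 2 months and 15.1, 16.3 and 15.8 CPM at 18 months (log2 fold change -1.17, edgeR adjusted p = 0.00769); the fall was 2.24-fold, but the libraries within each group were close together. Ankrd44, a regulatory subunit of protein phosphatase 6, measured 8.1, 9.52 and 7.53 CPM at 2 months and 2.69, 2.37 and 1.78 CPM at 18 months. Prima1, which anchors acetylcholinesterase to membranes, measured 11.9, 13.7 and 10.2 CPM at 2 months and 3.75, 3.35 and 1.91 CPM at 18 months, and C1qtnf6, a secreted C1q-like protein, 6.36, 11.2 and 6.48 CPM at 2 months and 1.27, 2.17 and 0.953 CPM at 18 months. Cdk6, the cyclin D-dependent kinase of G1, fell 3.56-fold (7.11, 5.2 and 5.19 CPM at 2 months and 1.42, 1.76 and 1.73 CPM at 18 months). It was the single called member of 35 tested proliferation genes (against 1.22% of all genes). Arrdc4, an arrestin-domain gene that responds to glucose, and Wsb1, a ubiquitin ligase adaptor, fell 2.23-fold and 2.32-fold. Over the 9 fits without 1 library, Nt5dc3, Irf2bp2 and Dnajb1 passed in all, Ankrd44 in 8, Prima1 and C1qtnf6 in 7 each, Cdk6 and Arrdc4 in 6 each and Wsb1 in 5.

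Clock genes changed in both directions. Of 25 tested members 4 rose (16% against 0.521% of all genes), 1 fell and 20 missed the threshold; the median log2 fold change was 0.49 beside 0.01 over all genes tested. The repressors Per2 and Per3 stood at 1.57, 2.33 and 3.12 CPM at 2 months and 14.4, 18.8 and 12.3 CPM at 18 months, and at 5.61, 4.27 and 5.54 CPM at 2 months and 18.9, 18.6 and 16.7 CPM at 18 months, respectively. Every aged library was above every young one for both genes. The output factor Dbp measured 8.75, 9.77 and 10.1 CPM at 2 months and 142, 125 and 21.2 CPM at 18 months. Aged library 4 held a far smaller amount than the other aged libraries, and the log2 fold change of Dbp was 3.33 with it and 3.81 without it, with edgeR adjusted p = 2.32e-05 in the latter fit. Dbp passed in only 3 of the 9 fits without 1 library, and not with the 6 vehicle libraries (edgeR adjusted p = 0.0713). Nr1d2, the repressor REV-ERB beta, measured 71.7, 48.2 and 52.2 CPM at 2 months and 134, 114 and 107 CPM at 18 months and rose 2.06-fold. Npas2, partner of the activator BMAL1, fell from 3.73, 2.33 and 2.81 CPM to 0.291, 0.164 and 0.173 CPM, near the floor of 3 counts. Cipc, which inhibits CLOCK and is no member of the list, rose 1.72-fold (chosen after its values were seen).

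Other clock genes, named after their values were seen, did not pass. Arntl, which encodes BMAL1, measured 38.7, 39.1 and 38.2 CPM at 2 months and 10.7, 9.04 and 22.4 CPM at 18 months (edgeR adjusted p = 0.0901), and Nfil3, which represses the sites that DBP activates, 50.4, 81.5 and 57.3 CPM at 2 months and 19.9, 16.1 and 38.3 CPM at 18 months (edgeR adjusted p = 0.0799). Ciart, a repressor of CLOCK and BMAL1, measured 1.2, 1.44 and 0.897 CPM at 2 months and 9.89, 11.9 and 1.69 CPM at 18 months (edgeR adjusted p = 0.0566). As with Dbp, aged library 4 held less than the other aged libraries and was close to the young range. Cry2 measured 25.2, 19.1 and 24.6 CPM at 2 months and 37.7, 36.4 and 38.8 CPM at 18 months (edgeR adjusted p = 0.0521), and no aged library reached down to a young one. Without aged library 4, Arntl (log2 fold change -1.97, edgeR adjusted p = 0.0279), Nfil3 (-1.81, 0.02) and Ciart (3.20, 0.000524) passed, and of the clock list 6 genes rose and 2 fell; with only the 6 vehicle libraries 2 rose and 1 fell. Hour of death was not stated, and its part in these values was not tested.

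Promoters from RefSeq (GRCm38.p6) were searched on both strands over 300 bases, 250 before to 50 after the start, for the D-box TTATGNAA, bound by DBP and its relatives, and for the E-box CACGTG. Of the 4 clock genes that rose, 3 were matched in the promoter table; 1 held a D-box and none an E-box, where 3.99% and 8.09% of all 27025 promoters held them. The 250 bases before the start of Per3, on the minus strand at chr4:151044666-151044915, are shown because Dbp itself rose and because, of the promoters searched for the called genes of the clock, immediate-early, heat shock and collagen lists, this alone held a D-box; it has 2 exact copies, 205 and 158 bases before the start (capitals).
Per3: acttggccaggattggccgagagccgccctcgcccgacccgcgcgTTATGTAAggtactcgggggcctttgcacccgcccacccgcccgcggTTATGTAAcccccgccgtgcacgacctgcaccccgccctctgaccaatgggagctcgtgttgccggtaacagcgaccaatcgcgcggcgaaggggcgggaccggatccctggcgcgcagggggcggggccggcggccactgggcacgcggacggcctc
The copies have the same letters and lie 47 bases apart, start to start. A match of letters is a description and not evidence of binding. Of the 6 immediate-early genes that fell and had a promoter entry, 0 held the CRE TGACGTCA, the AP-1 site TGANTCA or a CArG box (2.03%, 8.97% and 1.81% of all promoters). The heat shock element, present in 0.662% of all promoters, was in 0 of 3 heat shock genes that fell and 0 of 2 that rose, and the TATA box TATAAA (15.7% of all promoters) was in Apold1 and Hspb6. None of these 3 motifs or the heat shock element was in the 2 collagen promoters matched. The heat shock element was searched as a fixed pattern of letters. Its absence from the heat shock promoters therefore cannot show whether they hold a variant form of it.

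Of 32 tested immediate-early genes 11 fell at 18 months (34.4% against 0.695% of all genes), none rose and 21 did not pass, and the median log2 fold change was -1.30; 22 had non-overlapping groups with the aged libraries lower, against 13.5% of all genes. The AP-1 subunits Fosb, Fosl2 and Jund fell. Fosb measured 17.3, 5.84 and 6.94 CPM at 2 months and 0.218, 0.572 and 0.173 CPM at 18 months, and Fosl2 57.3, 30.0 and 25.5 CPM at 2 months and 9.78, 12 and 14 CPM at 18 months, with young library 2 well above the others for both. The log2 fold change of Fosb was -4.95, and over the fits without 1 library it ran from -5.64 to -4.31, nearest to 0 without young library 2 and farthest without aged library 3. Jund, less inducible than its relatives, fell by a smaller amount (56.7, 69.3 and 59.4 CPM at 2 months and 32.5, 41.1 and 24.8 CPM at 18 months). Fos and Jun themselves did not pass: Fos measured 95.3, 106 and 82.6 CPM at 2 months and 3.93, 3.88 and 23.3 CPM at 18 months (edgeR adjusted p = 0.087), with aged library 4 above the other aged ones, and Jun 264, 262 and 209 CPM at 2 months and 101, 98 and 288 CPM at 18 months (edgeR adjusted p = 0.397), with aged library 4 above the young range. Both were named after their values were seen, and both passed as lower without aged library 4 (edgeR adjusted p = 0.0241 and 0.0103).

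The stress-induced factor Atf3 measured 51.7, 48 and 61.1 CPM at 2 months and 4.95, 10.1 and 4.68 CPM at 18 months (log2 fold change -3.03, edgeR adjusted p = 0.0306). Every aged library lay far below every young one. The zinc finger factors Egr1 and Egr3 measured 38.4, 15.9 and 16.7 CPM at 2 months and 4.15, 6.13 and 4.68 CPM at 18 months, and 9.3, 2.03 and 1.4 CPM at 2 months and 0.109, 0.409 and 0.303 CPM at 18 months. For both genes young library 2 was the highest, and the log2 fold change of Egr3 ran from -4.37 to -2.65 over the fits without 1 library, nearest to 0 without young library 2. The Krüppel-like factors Klf2, induced by shear stress in endothelium, and Klf10, induced by TGF-beta, fell 3.22-fold and 2.32-fold. Klf10 was tight, at 37.5, 38.2 and 40.7 CPM at 2 months and 17.8, 14.4 and 18 CPM at 18 months. Ier2 fell from 15.3, 15.2 and 13.1 CPM to 4.58, 6.75 and 6.06 CPM, and Gem, a small GTPase, from 5.4, 4.27 and 3.43 CPM to 1.49, 0.818 and 0.52 CPM. Apold1, an endothelial early gene, measured 32.1, 10.2 and 8.31 CPM at 2 months and 0.582, 1.72 and 1.73 CPM at 18 months; its log2 fold change ran from -3.98 to -2.81 over the same fits, again nearest to 0 without young library 2. Nr4a1, an activity-induced receptor, averaged 144 ± 53.4 against 301 ± 60.1 CPM (SD, n = 3 each) without passing (edgeR adjusted p = 0.0859).

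Of 24 tested feedback inhibitors of MAP kinase signalling, which growth factor signals induce, 2 fell (against 0.695% of all genes), none rose, and the median log2 fold change was -0.57. Dusp8, a MAP kinase phosphatase, measured 45.9, 46.7 and 59.6 CPM at 2 months and 20.9, 21.8 and 11.9 CPM at 18 months, and Spry4, a sprouty protein, 17, 9.35 and 7.92 CPM at 2 months and 3.24, 3.03 and 1.3 CPM at 18 months; Spry4 passed in none of the 9 fits without 1 library. With the 6 vehicle libraries alone 5 immediate-early genes and no feedback inhibitor fell. Without aged library 4 the counts were 9 and 3.

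Heat shock genes changed in both directions. Of 33 tested chaperone genes 3 fell and 2 rose (against 0.695% and 0.521% of all genes), and 28 did not pass, around a median log2 fold change of -0.03. The 3 that fell are known as heat-inducible. Besides Dnajb1, the HSP70 genes Hspa1a and Hspa1b measured 483, 264 and 161 CPM at 2 months and 21.3, 15.8 and 4.81 CPM at 18 months, and 611, 306 and 188 CPM at 2 months and 16.4, 22.6 and 4.29 CPM at 18 months. These genes share 60.3% and 62.3% of their 50-base words with other genes, mostly each other, and reads from them may have been divided arbitrarily. Their sum does not depend on that division: it was 1094, 569.8 and 349 CPM at 2 months and 37.7, 38.4 and 9.09 CPM at 18 months, with no overlap. The constitutive relative Hspa8 did not pass (859, 1089.9 and 1133 CPM at 2 months and 834, 743 and 844 CPM at 18 months, edgeR adjusted p = 0.287), nor did the inducible HSP90 gene Hsp90aa1 (157, 91 and 103 CPM at 2 months and 69.5, 51.3 and 70.7 CPM at 18 months, edgeR adjusted p = 0.166); both were named after their values were seen.

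The 2 that rose were small heat shock proteins of muscle and heart. Hspb6 measured 376, 602 and 387 CPM at 2 months and 999, 979 and 1326 CPM at 18 months (log2 fold change 1.27, edgeR adjusted p = 0.0383), and passed in none of the 9 fits without 1 library. Hspb7 measured 115, 114 and 118 CPM at 2 months and 294, 436 and 1336 CPM at 18 months (log2 fold change 2.58, edgeR adjusted p = 0.0402). Aged library 4 was far above the other aged libraries for Hspb7, and without it the log2 fold change was 1.66. Cryab, the alpha-B crystallin gene, picked with its values known, stood at 337, 533 and 529 CPM at 2 months and 835, 667 and 716 CPM at 18 months and did not pass (edgeR adjusted p = 0.164). With the 6 vehicle libraries alone 2 chaperone genes fell and none rose; without aged library 4, 1 rose and 1 fell. Serpinh1, the collagen-specific chaperone of the endoplasmic reticulum, fell (108, 135 and 125 CPM at 2 months and 47.7, 46.5 and 23 CPM at 18 months). It was the single called member of 25 tested genes of folding in that compartment (against 1.22% of all genes).

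Of 32 tested collagen chains 3 fell at 18 months (against 0.695% of all genes), none rose and 29 missed the threshold. The median log2 fold change was -1.98, and 26 had non-overlapping groups with the aged libraries lower, against 13.5% of all genes. Col4a1 and Col4a2, which form the basement membrane network and share a promoter region on chromosome 8, measured 229.9, 335 and 263 CPM at 2 months and 62.8, 80.7 and 28.5 CPM at 18 months, and 157, 213 and 180.1 CPM at 2 months and 56.9, 62.4 and 26 CPM at 18 months. The aged values were in the same order of libraries for both, with library 4 lowest. Col14a1, a fibril-associated chain, measured 24.3, 15.7 and 8.51 CPM at 2 months and 1.35, 2.78 and 0.909 CPM at 18 months (log2 fold change -3.26, edgeR adjusted p = 0.0308). The main fibrillar chains, named after their values were seen, showed larger differences and wider spread. Col1a1 measured 245, 566 and 224 CPM at 2 months and 23.5, 35.3 and 2.6 CPM at 18 months (edgeR adjusted p = 0.064), and Col3a1 603, 849 and 421 CPM at 2 months and 59.9, 103 and 4.68 CPM at 18 months (edgeR adjusted p = 0.0913). For each chain every aged library was below every young one, and aged library 4 was far below the other aged libraries. Of the 32 chains 29 were lowest in aged library 4. Without it 1 chain fell and the median was -1.70; with the 6 vehicle libraries 1 fell.

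Other matrix genes were also mostly lowest in aged library 4, 48 of 52 glycoproteins and proteoglycans and 28 of 39 enzymes. Of the glycoproteins and proteoglycans 4 fell (against 0.695% of all genes), none rose, and the median log2 fold change was -1.30, or -0.99 without aged library 4. Sparc, a collagen-binding protein of remodelling tissue, measured 329.9, 723 and 393 CPM at 2 months and 98.7, 129.5 and 39.3 CPM at 18 months, and Thbs1, thrombospondin 1, 22.6, 20.7 and 13.5 CPM at 2 months and 1.45, 4.13 and 0.909 CPM at 18 months. Hspg2, which encodes the basement membrane proteoglycan perlecan, measured 189.8, 148 and 158 CPM at 2 months and 61.5, 81.7 and 42.5 CPM at 18 months. Cilp2, a cartilage and tendon matrix protein, measured 5.98, 17.9 and 5.19 CPM at 2 months and 0.364, 0.695 and 0.0433 CPM at 18 months. Over the fits without 1 library the log2 fold change of Cilp2 ran from -5.48 to -3.90, nearest to 0 without young library 3, where it missed the threshold. That of Thbs1 ran from -3.98 to -2.77, and both were farthest from 0 without aged library 3. Cilp2 passed in 4 of these 9 fits and Thbs1 in 3. Neither passed with the 6 vehicle libraries (edgeR adjusted p = 0.0643 for both). Of the 39 matrix enzymes, with a median of -1.08 (-0.76 without aged library 4), 3 fell and none rose: Lox, the collagen cross-linking oxidase (13.6, 16.5 and 12 CPM at 2 months and 5.31, 6.05 and 4.2 CPM at 18 months), Adamts2, which trims procollagen (25, 23.5 and 14.6 CPM at 2 months and 5.2, 6.71 and 2.3 CPM at 18 months), and Adamts10, which acts on microfibrils (7.49, 7.36 and 6.4 CPM at 2 months and 2.95, 3.39 and 2.73 CPM at 18 months). Adamts10 was the least variable of these, with all 3 aged libraries close together. Without aged library 4, 2 glycoproteins and no enzyme passed, and with the 6 vehicle libraries no glycoprotein and 1 enzyme.

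**Figure D3:**
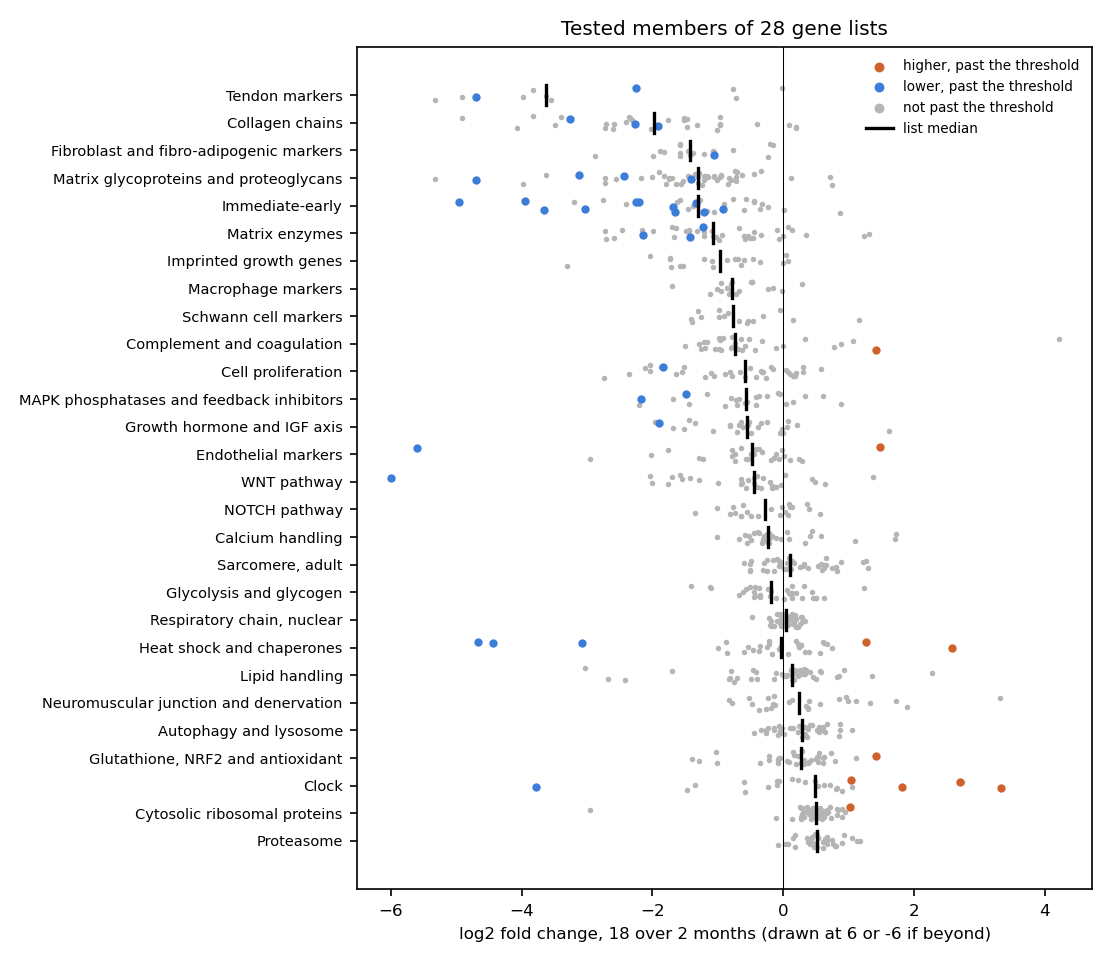
Log2 fold change (18 over 2 months, drawn at 6 or -6 if beyond) of each tested member of 28 gene lists, with orange and blue points for members past the threshold, grey for the others and a black bar at the list median. Medians run from -3.62 for tendon markers to 0.53 for the proteasome.

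Markers of matrix-making cells are given beside these genes, and their part in the matrix result was not tested. Of 19 tested fibroblast markers 1 fell (against 0.695% of all genes). It was the sialomucin gene Cd34 (69.1, 69 and 49.2 CPM at 2 months and 24.3, 37.5 and 28.1 CPM at 18 months), which endothelial and satellite cells also express. Cd34 missed the threshold without aged library 4 (edgeR adjusted p = 0.0839) and with the 6 vehicle libraries (0.0783). The list median was -1.42, and -0.99 without aged library 4. The summed level of the fibroblast markers was 949.7 to 2485 CPM in the young and 268 to 1023 CPM in the aged libraries, ranges that overlap. Of the 19 markers 15 were lowest in aged library 4. Pdgfra, the defining receptor of fibro-adipogenic progenitors, measured 37.4, 24.3 and 10.8 CPM at 2 months and 8.91, 12.5 and 2.86 CPM at 18 months and did not pass (edgeR adjusted p = 0.211). Tendon markers had the lowest median of the lists drawn, -3.62, with 2 of 11 lower (against 0.695% of all genes), Cilp2 and Egr1. Both calls were also counted above, Cilp2 among the matrix glycoproteins and Egr1 among the immediate-early genes. With the 6 vehicle libraries 0 fell, and without aged library 4, 3 fell and the median was -3.07. The tendon proteoglycan gene Fmod measured 74.2, 168 and 73.9 CPM at 2 months and 7.27, 12 and 0.693 CPM at 18 months (edgeR adjusted p = 0.0884), and the tendon marker Tnmd 5.54, 13 and 8.08 CPM at 2 months and 0.618, 1.51 and 0.13 CPM at 18 months (edgeR adjusted p = 0.0654). The summed tendon level was 223 to 428 CPM in the young and 58.4 to 115 CPM in the aged. Scx, the transcription factor that defines tendon cells, was level, at 3.42, 4.44 and 4.37 CPM at 2 months and 4.4, 4.21 and 3.42 CPM at 18 months (log2 fold change -0.02). Pdgfra, Fmod, Tnmd and Scx were named after their values were seen.

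Endothelial markers showed a smaller shift, with a median log2 fold change of -0.47. Of 28 tested 1 rose and 1 fell (against 0.521% and 0.695% of all genes), and 26 missed the threshold. Prnd, the prion-like protein doppel, which marks growing brain vessels, measured 0.855, 11.8 and 10.8 CPM at 2 months and 0.291, 0.164 and 0 CPM at 18 months; young library 2 was far below the other young libraries, though above the aged ones. The log2 fold change of Prnd was -5.59, and -6.46 without aged library 1; it passed in 1 of the 9 fits without 1 library. Rgcc, a cell cycle regulator, measured 33.3, 34.4 and 24.5 CPM at 2 months and 58.4, 69.6 and 130.4 CPM at 18 months. General vessel markers did not pass: Pecam1 measured 73.8, 76.9 and 77.8 CPM at 2 months and 45.2, 58.6 and 72.9 CPM at 18 months (edgeR adjusted p = 0.386), and Cdh5, the endothelial cadherin, averaged 57.1 ± 13 against 95.4 ± 7.14 CPM (edgeR adjusted p = 0.118). Among the genes that fell were 3 that endothelium expresses and that lie outside this list. Cd93, a surface lectin of endothelial cells, measured 61, 65.9 and 61.1 CPM at 2 months and 19.4, 27 and 20.1 CPM at 18 months (log2 fold change -1.50, edgeR adjusted p = 0.0191). Bcl6b, an endothelial transcriptional repressor, measured 34.5, 26.1 and 22.9 CPM at 2 months and 6.98, 11.1 and 4.85 CPM at 18 months, and Edn1, the vasoconstrictor endothelin 1, 2.05, 2.5 and 2.26 CPM at 2 months and 0.727, 0.777 and 1.04 CPM at 18 months. Over the 9 fits without 1 library Cd93 passed in 7, Bcl6b in 2 and Edn1 in 0. With the 6 vehicle libraries Cd93 passed (edgeR adjusted p = 0.0186), but Bcl6b and Edn1 did not (0.0643 and 0.0866). Pecam1, Cdh5, Bcl6b and Edn1 were named after their values were seen. The summed level of the endothelial list was 937 to 1198 CPM in the young and 788 to 1162 CPM in the aged, ranges that overlap. With aged library 4 left out, 1 marker of the list rose, none fell and the median was -0.36. With the 6 vehicle libraries no marker of the list passed.

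No member of the macrophage (19 tested), Schwann cell (16) or smooth muscle and pericyte (16) lists passed, and their medians were -0.78, -0.76 and -0.32. Without aged library 4, in which 14 of the Schwann cell and 13 of the smooth muscle markers were lowest, the medians were -0.78, -0.46 and -0.04, and 1 smooth muscle marker was higher. Of 12 tested adipocyte markers 1 fell (against 0.695% of all genes). It was Car3, carbonic anhydrase 3, at 1068, 650.4 and 798 CPM at 2 months and 397, 359 and 307 CPM at 18 months. This gene is also a major transcript of muscle fibres, and it passed in none of the 9 fits without 1 library. The list median was -1.27.

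**Figure D4:**
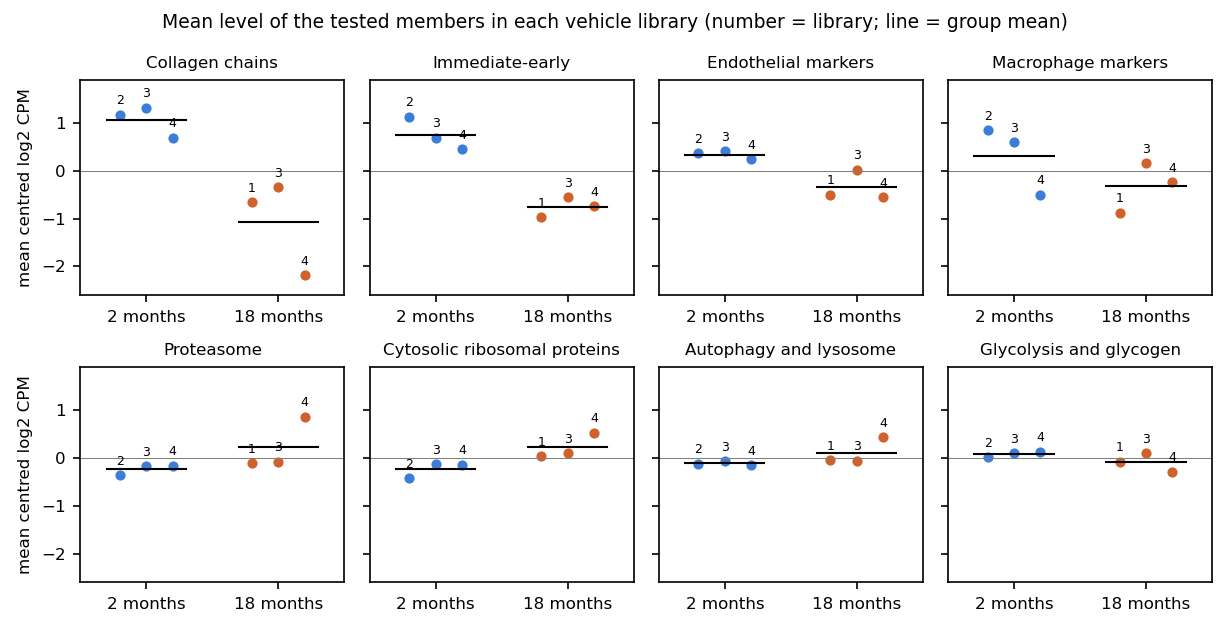
Mean centred log2 CPM of the tested members of 8 lists in each vehicle library; points carry the library number and lines show group means of 3 libraries. Aged library 4 was lowest for collagen chains (-2.19) and highest for the proteasome (0.87), whereas immediate-early genes were low in all 3 aged libraries (-0.97 to -0.55).

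Of 27 tested genes of the growth hormone and IGF axis 1 fell, Igf1, which encodes the growth factor itself, at 19.8, 18.6 and 30.0 CPM at 2 months and 6.8, 8.67 and 2.81 CPM at 18 months (log2 fold change -1.90, edgeR adjusted p = 0.0462), with a list median of -0.55. Of the 27 genes 19 were lowest in aged library 4. Without it the list median was -0.37, 2 genes fell and the log2 fold change of Igf1 was -1.56. Igfbp5, an IGF binding protein, was picked with its values known; it measured 1028, 856 and 1084 CPM at 2 months and 476, 487 and 74.5 CPM at 18 months without passing (edgeR adjusted p = 0.176). Irs2, an adaptor of the insulin receptor, fell 2.52-fold (63.9, 57.2 and 47.2 CPM at 2 months and 21.5, 21.1 and 24.2 CPM at 18 months), the single called gene of 29 in insulin signalling, whose median was 0.01. In the WNT pathway 1 of 33 fell, the secreted WNT inhibitor Wif1, from 1.33, 2.79 and 1.76 CPM to 0.0364, 0 and 0 CPM, the aged values being at or below 1 count. Kl, which encodes klotho, the FGF23 co-receptor, fell from 2.7, 2.03 and 2.07 CPM to 0.436, 0.123 and 0.0433 CPM, with a log2 fold change of -3.42, and -4.67 without aged library 1. Ccn1, a matricellular target of YAP and TGF-beta, fell 2.21-fold (85.7, 81.9 and 75.3 CPM at 2 months and 27.7, 32.1 and 50.2 CPM at 18 months) and was the single called member of 33 in the TGF-beta and BMP list. Rhob, a small GTPase, was the single called member of the 22 tested p21-activated kinases and partners, at 96, 89.7 and 60.5 CPM at 2 months and 33.7, 41.3 and 30.4 CPM at 18 months; no kinase of that family passed. Imprinted growth genes, which are mostly shut down after birth, had no called member among 20 tested and a median of -0.96. Of the 20, 9 had non-overlapping lower aged libraries, against 13.5% of all genes. Aged library 4 was the lowest for 12, and without it the median was -0.82. The summed level of the list was 1939 to 2297 CPM in the young and 1726 to 2114 CPM in the aged, ranges that overlap. Peg3 measured 29.6, 13.4 and 16.6 CPM at 2 months and 4.15, 6.5 and 7.32 CPM at 18 months (edgeR adjusted p = 0.0554), and the noncoding Meg3 8.82, 7.87 and 6.52 CPM at 2 months and 3.96, 3.03 and 0.996 CPM at 18 months (edgeR adjusted p = 0.0913). A single called member in a list of this size is a value for that gene and says nothing about the list, given the 1.22% called over all genes.

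Genes of the contractile apparatus and of energy metabolism mostly did not pass. No gene was called among 42 of the adult sarcomere, 31 of calcium handling, 48 nuclear respiratory chain subunits, 12 mitochondrial transcripts, 28 of the citric acid cycle, 35 of glycolysis and glycogen and 45 of lipid handling; their medians lay between -0.23 and 0.43. Examples that did not pass were Tcap, the titin cap protein (1259, 1341 and 1434 CPM at 2 months and 2492, 2647 and 1930.1 CPM at 18 months, edgeR adjusted p = 0.0913), and Ppp1r3c, which targets phosphatase to glycogen (618, 691 and 783 CPM at 2 months and 242, 319 and 415 CPM at 18 months, edgeR adjusted p = 0.0687). Among 19 cardiac and developmental sarcomere genes 1 rose and 1 fell (against 0.521% and 0.695% of all genes). Actc1, the cardiac actin of developing and regenerating fibres, measured 187, 599 and 736 CPM at 2 months and 19, 49.4 and 2.81 CPM at 18 months (log2 fold change -4.42, edgeR adjusted p = 0.0462). The aged libraries were widely spread, all below the young. Over the fits without 1 library the log2 fold change of Actc1 ran from -5.53 to -3.90, farthest from 0 without aged library 3; it passed in 2 of the 9 and not with the 6 vehicle libraries (edgeR adjusted p = 0.0949). Myl4, the embryonic and atrial light chain, measured 2.33, 3.85 and 2.81 CPM at 2 months and 7.97, 16.4 and 7.19 CPM at 18 months and rose 3.52-fold.

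No gene was called among 26 of the neuromuscular junction and 30 of atrophy and ubiquitin ligases. The atrophy ligase genes Fbxo32 and Trim63 (picked with their values known) measured 292, 218 and 213 CPM at 2 months and 339.9, 260.1 and 1536 CPM at 18 months, and 224, 191 and 233 CPM at 2 months and 229, 143 and 833 CPM at 18 months, with aged library 4 the highest for both. Without aged library 4 the log2 fold change of Trim63 was -0.21, and with it 0.89. Runx1, induced in denervated muscle, measured 1.68, 1.78 and 2.5 CPM at 2 months and 4.36, 3.68 and 14.2 CPM at 18 months (edgeR adjusted p = 0.0894), and the acetylcholine receptor subunit Chrnb1 29.8, 35.9 and 29.2 CPM at 2 months and 52.2, 57.2 and 130.2 CPM at 18 months (edgeR adjusted p = 0.0894). Metallothionein genes Mt1 and Mt2 measured 10.8, 10.9 and 6.01 CPM at 2 months and 5.06, 14.5 and 300.0 CPM at 18 months, and 4.62, 5.2 and 3.32 CPM at 2 months and 2.15, 14.6 and 249.5 CPM at 18 months; neither passed (edgeR adjusted p = 0.17 and 0.133).

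Ribosomal protein and proteasome genes had small positive medians. Of 63 ribosomal protein genes 1 rose (against 0.521% of all genes) and none fell. A positive log2 fold change was found for 61, against 7357 of all 14384 genes tested, and the median was 0.51. Non-overlapping groups with the aged libraries higher were found for 53, against 12.7% of all genes. Aged library 4 was the highest library for 58 of the 63, and without it the median was 0.31. No ribosomal protein gene passed without aged library 4 or with the 6 vehicle libraries. All 38 proteasome genes missed the threshold, with a median of 0.53 (0.16 without aged library 4) and 36 highest in that library. Psmd8, a proteasome lid gene, measured 159.5, 181 and 182 CPM at 2 months and 230.0, 248 and 613 CPM at 18 months. The gene that rose, Rpsa, which encodes a small ribosomal subunit protein, measured 252, 207 and 275 CPM at 2 months and 427, 465 and 594 CPM at 18 months (log2 fold change 1.02, edgeR adjusted p = 0.0481; 0.062 without aged library 4), and it has a near copy that moved the other way, described with the pseudogenes.

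Among regulators picked with their values known, the DNA methyltransferase gene Dnmt3a stood at 63, 49.2 and 65.3 CPM at 2 months and 27.8, 26.7 and 16.9 CPM at 18 months, and Tet3, which oxidises methylated cytosine, 27.6, 22.5 and 23.1 CPM at 2 months and 13.4, 14.2 and 9.83 CPM at 18 months. Both fell (log2 fold change -1.32, edgeR adjusted p = 0.0306; log2 fold change -0.97, edgeR adjusted p = 0.0342). The mitochondrial fusion factors Miga1 and Miga2, which work as a complex, went in opposite directions: Miga1 measured 9.71, 7.27 and 6.75 CPM at 2 months and 16.7, 12.8 and 17.9 CPM at 18 months, and Miga2 33.7, 31 and 33 CPM at 2 months and 18.3, 17.3 and 13.1 CPM at 18 months, each without overlap. Insig1, the feedback sensor that retains SREBP, fell (21.4, 18.8 and 19.4 CPM at 2 months and 7.78, 9.49 and 7.23 CPM at 18 months). Sntb1, a syntrophin of the dystrophin complex, fell from 6.05, 4.19 and 4.25 CPM to 1.16, 1.96 and 1.56 CPM, and Slc38a4, an imprinted amino acid transporter outside the list, measured 139, 161 and 255 CPM at 2 months and 82.9, 67.7 and 64 CPM at 18 months. Trib3, a pseudokinase induced by amino acid shortage, rose from 0.41, 0.592 and 0.312 CPM to 1.53, 2.25 and 1.82 CPM. It was the single called gene of 27 in the stress and amino acid response (against 1.22% of all genes). Cd55, which shields cells from complement, rose (41.3, 25.8 and 30.7 CPM at 2 months and 86.5, 68.1 and 108 CPM at 18 months). It was the single called gene of 32 in complement and coagulation (against 1.22% of all genes). Of its 50-base words 8% are shared with its neighbour copy Cd55b.

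A stretch of chromosome 2 held a cluster of lower genes, noticed after their values were seen and given without a test. KRAB zinc finger genes encode repressors, many of which bind transposable elements, and they lie in clusters of near copies. Between positions 175129493 and 178078476 of chromosome 2 (GRCm38) 27 genes were tested, of which 24 carry a zinc finger domain in the deposited annotation. Of the 27, 6 fell (against 0.695% of all genes) and none rose: Zfp968, Gm6710, Zfp973, Gm14305, Gm14295 and Gm14296. These lay between 175372436 and 176927809, where 12 genes were tested, 11 had a negative log2 fold change and the median was -3.19. This inner part was bounded by the first and last called gene, so no call of the stretch could lie outside it. That choice of bounds also favours a lower median inside. The 15 tested genes before and after it had a median of -0.23. The 236 tested KRAB genes elsewhere in the genome had no call and a median of 0.16.

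Zfp968 (chromosome 2, 175372436 to 175384201) measured 42.7, 29.4 and 21.5 CPM at 2 months and 4.33, 2.37 and 3.07 CPM at 18 months (log2 fold change -3.25, standard error 0.31, edgeR adjusted p = 0.00234), and the aged GW8510 libraries held 2.91, 2.13 and 2.54 CPM, in the range of the aged vehicle libraries. Zfp973 measured 10.2, 6.26 and 5.19 CPM at 2 months and 0.837, 0.859 and 0.779 CPM at 18 months, with 1.45, 0.974 and 0.623 CPM in the GW8510 libraries. Gm14296 measured 7.52, 7.91 and 4.41 CPM at 2 months and 0.546, 0.532 and 0.65 CPM at 18 months, and Gm14295 4.24, 4.86 and 2.46 CPM at 2 months and 0.218, 0.409 and 0.39 CPM at 18 months. Gm14305 measured 4.79, 3.34 and 1.72 CPM at 2 months and 0.255, 0 and 0.173 CPM at 18 months, close to the floor in the aged group, with a log2 fold change of -4.46 and of -5.19 without aged library 1. Gm6710, called in 1 of the 9 fits without 1 library, changed least (25.2, 28.6 and 16.7 CPM at 2 months and 11.5, 8.3 and 10.9 CPM at 18 months). Gm14288 went from 2.87, 1.14 and 1.56 CPM to 0, 0.123 and 0 CPM without passing (edgeR adjusted p = 0.0569). These values are uncertain gene by gene, because 95.5% of the 50-base words of Zfp968, 84.7% of those of Zfp973 and 100% of those of Gm14288 occur in other annotated transcripts, and reads from such copies may have been assigned among them. Whether the animals differ in the sequence or copy number of this stretch was not tested.

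**Figure D5:**
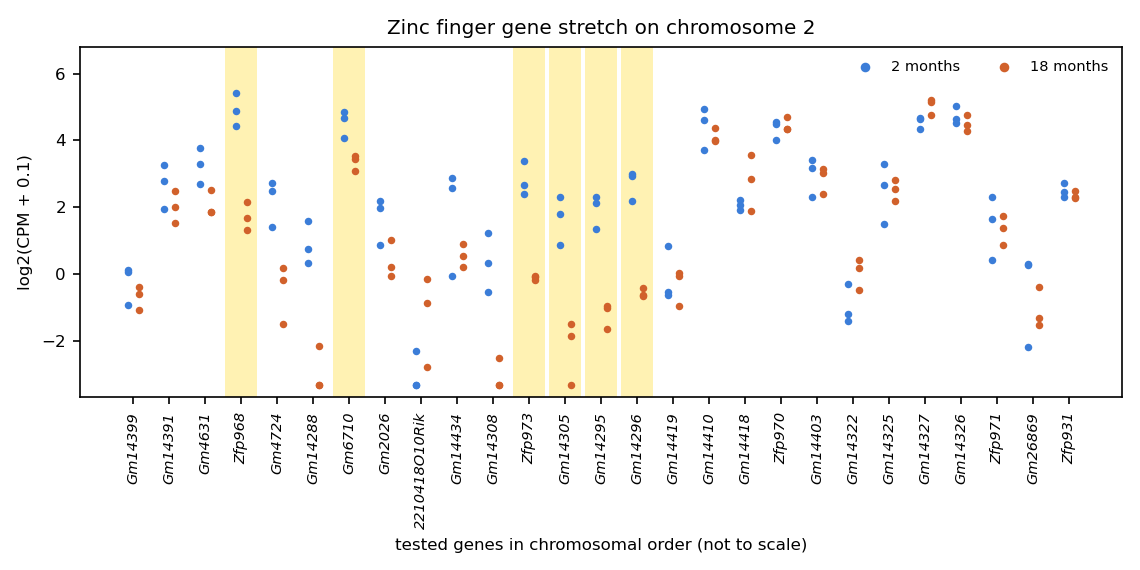
Log2(CPM + 0.1) of the 27 tested genes of the chromosome 2 stretch in chromosomal order (not to scale), 1 point for each library, blue for 2 months and orange for 18 months; yellow bands mark the 6 genes that fell. The bands lie within the left 15 genes, and the groups overlap in all but 1 of the 12 genes to the right.

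Some genes were present in 1 age group and at or under the floor of 3 counts in every library of the other. Of genes with at least 1 CPM in every library of the other group, 6 were at the floor in the young, 5 of which were called, and 8 were at the floor in the aged, 6 of which were called. Pseudogenes made up 13 of all 175 calls, or 3.22% of the 404 tested, against 1.11% of protein-coding and 1.76% of long noncoding genes. The processed pseudogenes Rpl30-ps9 (chromosome X, 105278637 to 105278981) and Gm12191 (chromosome 11, 49678710 to 49679057) measured 14.4, 15.7 and 25.9 CPM and 8.07, 5.03 and 11.4 CPM in the aged libraries and at most 0.039 CPM in the young. Gm12191 was at least 70.8-fold higher in the aged, taking 3 counts in each young library as the limit. Of their 50-base words 97.6% and 96.7% occur in the other of the pair, so reads may have been divided between them. Summed with Rpl30 they gave 104, 118 and 118 CPM at 2 months and 155, 148 and 248 CPM at 18 months, which did not overlap. Rpl30 alone, at 104, 118 and 118 CPM and 133, 127 and 211 CPM, did not overlap either, so the sum cannot show how reads were divided. AC165951.1, an antisense transcript (chromosome 17, 30920338 to 30963220), was at 0 in the young and at 3.64, 4.21 and 2.47 CPM in the aged, at least 29.8-fold higher. The sources used here do not say whether counting used strand. Gm10320 was at 0 in the young and at 3.02, 1.27 and 2.21 CPM in the aged, at least 18.7-fold higher.

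In the other direction, Rpsa-ps10 (chromosome 3, 150072658 to 150073542) measured 111, 284 and 129.9 CPM in the young and 0 in the 3 aged and the 3 GW8510 libraries, at least 1450-fold lower than in the young. It shares 74.6% of its words with Rpsa. Summed with Rpsa it gave 363, 491 and 405 CPM at 2 months and 427, 465 and 594 CPM at 18 months, ranges that overlap, so the rise of Rpsa alone cannot be told apart from a different division of reads. Gm4366 measured 78.2, 86 and 164 CPM at 2 months and 0.218, 0 and 0 CPM at 18 months and shares 82.0% of its words with Eef1g, an elongation factor gene. Their sum was 356, 473 and 455 CPM at 2 months and 431, 494 and 522 CPM at 18 months, again overlapping. Rps24-ps3 fell from 30.8, 12.3 and 35.3 CPM to at most 0.02 estimated counts in any aged library. With Rps24 it summed to 203, 258 and 238 CPM at 2 months and 356, 352 and 457 CPM at 18 months, which did not overlap. Rps24 alone, at 173, 246 and 203 CPM and 356, 352 and 457 CPM, did not overlap either. The sum therefore cannot show how reads were divided. Gm2539 fell from 4.69, 3.26 and 4.8 CPM to 0, 0 and 0.0433 CPM and shares 8.46% of its words with other genes. E130208F15Rik, a protein-coding gene with no shared words, went from 3.52, 1.95 and 1.09 CPM to 0 in all 3 aged libraries, at least 18.1-fold lower, and A530016L24Rik, also without shared words, from 1.44, 1.23 and 1.68 CPM to 0.0364, 0.123 and 0.0433 CPM. The GW8510 libraries held 0.499, 1.77 and 2.67 CPM of A530016L24Rik, and were not at the floor for this gene.

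Several called genes, most of them named after their values were seen, were neighbours. Gm20481 (chromosome 17, 34969912 to 34972136) lies within Hspa1a on the opposite strand and fell with it (9.13, 7.82 and 8.43 CPM at 2 months and 0.473, 0.245 and 0.563 CPM at 18 months). A530058N18Rik overlaps Actc1 and fell with it, from 0.718, 1.1 and 4.21 CPM to 0. The antisense 1110046J04Rik rose with Serpinb6a, within which it lies, and Gm15675 rose with Cd55, next to it. A330023F24Rik, downstream of Cd34 on the same strand, rose while Cd34 fell. Without strand in the counting, overlapping pairs on opposite strands cannot be told apart.

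The authors' deposited table for the same libraries marks 653 genes as significant, 216 higher and 437 lower. Of the 175 genes called here 161 (92.0%) are marked there, which is 24.7% of that list. The thresholds differ. Miga2 (log2 fold change -0.99) and Cipc (0.79) have an adjusted p under 0.05 in the authors' table but are not marked. No limit on the fold change was set here, and 13 of the 175 genes changed less than 2-fold.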

How the data were processed

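RNA of muscle was sequenced by the authors in 9 libraries, of which 6 are compared here. Per the file headers, the authors deposited an estimated count and a TPM for each gene and library, with their own log2 fold change and adjusted p-value. The deposited estimated counts (expected counts) were not normalized. GRCm38, CASAVA, HISAT2, StringTie, RSEM, DESeq2 and edgeR are named in the submitters' processing notes; versions, roles and use of strand are not given in the sources used here. Reads shared by near copies may have been divided between them in such estimated counts.

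Groups followed the labels. Deposited counts (91.4% of them whole) were rounded and fitted in R 4.3.3 with edgeR 4.0.16 (filterByExpr, TMM, quasi-likelihood F test, two-sided, all 9 libraries, contrast of 18-month against 2-month vehicle), with Benjamini-Hochberg adjustment over 14384 genes at a threshold of 0.05. The common dispersion was 0.0812. Of 55536 genes 29661 had no count in any library. Precision is limited by 3 libraries a group; the floor of 3 counts covers counting error only. Standard errors were taken from the fold change and its F value. Coordinates are those of GENCODE M21. Levels are CPM; TPM served only for Acta1. The script was tested on simulated data.

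Genes were named by a rule: the 15 higher and 15 lower non-overlapping genes with the smallest p and a mean of at least 1 CPM, neither pseudogenes nor clone-named, up to 4 called members of each of 63 lists, up to 2 members where none was called, up to 8 called pseudogenes and clone-named genes, and identity genes. A further 83 genes were chosen after their values were seen. The comparison, its lists and its rule were chosen with earlier results of these data known. Alternatives were limma 3.58.1 voom, DESeq2 1.42.0, other scalings and filters, a replicate block, the 6 vehicle libraries alone, and leaving out each library.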

Additional observations from a re-analysis of the deposited data

How the results depend on the processing

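The number of genes called (175, of which 75 higher and 100 lower) changed with most settings. It was 50 (11 and 39) with only the 6 vehicle libraries, 290 (106 and 184) when aged library 4 was also left out of those, 699 (265 and 434) without a filter on low counts, and 927 (377 and 550) with DESeq2. Scaling by total counts gave 137 calls, of which 48 were higher. Leaving out 1 library at a time gave 19 to 148 calls, 8 to 68 higher and 11 to 91 lower. The causes of these differences were not tested. The voom, DESeq2 size factor and 1 CPM settings stayed within 1.5 times the reported counts. All 175 called genes kept their sign in each setting that tested them. Reversals concerned 3 named genes that had not passed. On the log2 scale Bpgm was at 0.0412 without aged library 4 and 0.0408 in that fit of the vehicle libraries alone, with a range of -0.52 to 0.0412 over the fits without 1 library. Trim63 was at -0.214 and -0.215, with a range of -0.214 to 1.30. Scx was at 0.0458 without young library 3, 0.0332 without young library 4, and 0.0805 and 0.07997 without aged library 4, with a range of -0.144 to 0.0805. Genes near 1 CPM rest on few reads, which limits the precision of their folds.

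The groups share replicate numbers 3 and 4 only, and the labels do not say that a number pairs samples. The deviations of same-numbered libraries from their group means had correlations of 0.138 and 0.0727. Those of differently numbered libraries ran from -0.157 to 0.0643. With the replicate number as a block, 5 genes were called, 3 higher and 2 lower.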

Other observations

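In aged library 4 several antibody and B cell genes stood far above the other vehicle libraries. Igkc, the kappa light chain constant gene, stood at 156 CPM there and at no more than 0.400 CPM in the other 5 vehicle libraries, and the variable gene Igkv1-135 at 52.2 CPM. Ighg2c, an IgG heavy chain gene, stood at 38.4 CPM, Jchain, which joins antibody units, at 15.9 CPM and Cd79a, part of the B cell receptor, at 4.33 CPM. Ighm, the IgM heavy chain gene, went the other way, at 63.2 CPM against 117 to 301 CPM in the other vehicle libraries, and all immunoglobulin genes together summed to 388 CPM against 120.3 to 302 CPM. In the same library Pvalb, the calcium buffer of fast fibres, stood at 2352 CPM, where the other vehicle libraries held 10041 to 15791 CPM. These are values of 1 library, and no comparison between ages rests on them.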
